A study of Mus musculus with 2 samples.

Results

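The interferon-induced GTPases of mice fall into the guanylate-binding proteins, encoded by Gbp genes, and the immunity-related GTPases, encoded by Irg genes. Those read here were 10 of the 31055 genes of the expression library, taken by symbol: Gbp2, Gbp3, Gbp4, Gbp5 and Gbp7 of the first family, and Irgm1, Igtp, Iigp1, Ifi47 and Tgtp2 of the second. All 10 were found. They were read in 4236 cell barcodes with at least 1000 gene UMIs (unique molecular identifiers, each standing for 1 captured transcript), at least 500 genes and at most 10% mitochondrial UMIs, in marker-gated cell classes and by spatial barcode, with macrophages and monocytes first.

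The study profiled immune cells of a B78ChOVA melanoma, a mouse tumour line grown under the skin of the flank and taken 16 days after injection. Live tumour sections were labelled by region with ZipSeq spatial barcodes, named ZC1, ZC2 and ZC3 in the files, then dissociated and sorted, and the cells were encapsulated with 10x Genomics droplets. The 2 samples are 2 libraries of the same cells, one of gene expression and one of spatial barcodes. All cells thus share 1 tumour setting, 1 time and no untreated control, and neither the strain of the mice, the number of tumours nor the regions behind ZC1, ZC2 and ZC3 is given in the sources used here.

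Over all barcodes 117528298 UMIs came from genes and 14355102 from spatial tags. Kept cells had 1027 to 215512 gene UMIs with a median of 23132, and all 4236 also held spatial UMIs. There is 1 library and no replicate. No test between conditions was therefore possible. Levels are UMIs summed over the cells of a set per 1000000 gene UMIs (CPM, counts per 1000000). The 95% intervals are exact Poisson for a level and exact binomial for a share or a ratio. They cover counting error only, since the UMIs and cells of 1 library are not independent replicates. A ratio was called past the limit when it exceeded 1.5 in either direction, and the share of all genes past the same limit in that direction is given with the counts of a comparison. Free RNA was read from 68497 barcodes with 10 to 100 gene UMIs.

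Both families are large or medium-sized GTPases that cells make after exposure to interferon, above all interferon gamma, which signals through the receptor chains Ifngr1 and Ifngr2, the kinases Jak1 and Jak2 and, further down, the transcription factor Irf1. Guanylate-binding proteins assemble on the membranes of bacteria and of vacuoles that hold parasites, and help to open them to inflammasome sensing. Immunity-related GTPases also coat such vacuoles. Their effectors, Iigp1 (Irga6), Ifi47 (Irgd) and Tgtp2 (Irgb6), carry a lysine in the nucleotide-binding P-loop, whereas the regulators Irgm1 and Igtp (Irgm3) carry a methionine there and hold the effectors inactive on the cell's own membranes. In tumours these genes are widely used as readouts of interferon gamma exposure.

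The P-loop codons of the members show that division and are printed for this reason. Each line gives 24 coding bases of the mm10 genome, read on the gene's own strand, with the codon that separates regulators from effectors in capitals.
Irgm1 (chr11:48866761-48866784, minus strand): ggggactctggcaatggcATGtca
Igtp (chr11:58206275-58206298, plus strand): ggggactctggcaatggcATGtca
Ifi47 (chr11:49095648-49095671, plus strand): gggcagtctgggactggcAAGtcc
Tgtp2 (chr11:49059534-49059557, minus strand): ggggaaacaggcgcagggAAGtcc
Gbp2 (chr3:142623826-142623849, plus strand): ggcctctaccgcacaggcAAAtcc
Gbp5 (chr3:142500689-142500712, plus strand): ggtctttatcgcacaggcAAAtcc
The stretch was the same, base for base, in Irgm1 and Igtp, which carry the methionine codon. A lysine codon stood there in the other 8 members.

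Sequence before the start sites was searched for the motifs known from interferon-induced genes. RefSeq promoters (GRCm38.p6, 250 bases before to 50 after the start) were on hand for 8 members, and Gbp4 and Iigp1 were not among them. Capitals mark GAAA, any 2 bases and GAAA (on the other strand TTTC, any 2 bases and TTTC), the core of the interferon-stimulated response element, and TTC, any 3 bases and GAA, which reads the same on both strands, the form of the gamma-activated site. The stretches printed end at the RefSeq start or at the first annotated exon base, and only 30 bases around the match are shown for Irgm1 and Gbp2, whose matches lie in or at annotated exons.
Irgm1 (chr11:48871428-48871457, minus strand): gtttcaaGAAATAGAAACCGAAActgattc
Igtp (chr11:58199446-58199555, plus strand): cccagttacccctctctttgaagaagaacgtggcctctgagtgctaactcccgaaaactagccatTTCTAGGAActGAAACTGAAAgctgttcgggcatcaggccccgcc
Tgtp2 (chr11:49064213-49064322, minus strand): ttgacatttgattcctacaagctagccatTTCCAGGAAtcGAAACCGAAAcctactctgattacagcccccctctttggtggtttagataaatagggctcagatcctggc
Ifi47 (chr11:49076477-49076586, plus strand): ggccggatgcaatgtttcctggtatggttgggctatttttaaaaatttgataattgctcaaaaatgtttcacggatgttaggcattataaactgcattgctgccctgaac
Gbp7 (chr3:142530226-142530335, plus strand): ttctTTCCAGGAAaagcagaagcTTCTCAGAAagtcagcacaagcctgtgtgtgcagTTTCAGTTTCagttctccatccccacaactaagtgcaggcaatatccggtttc
Gbp3 (chr3:142559934-142560025, plus strand): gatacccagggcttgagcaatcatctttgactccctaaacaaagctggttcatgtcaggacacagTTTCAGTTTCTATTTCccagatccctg
Gbp2 (chr3:142620594-142620623, plus strand): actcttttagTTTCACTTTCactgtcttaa
Gbp5 (chr3:142496684-142496899, plus strand): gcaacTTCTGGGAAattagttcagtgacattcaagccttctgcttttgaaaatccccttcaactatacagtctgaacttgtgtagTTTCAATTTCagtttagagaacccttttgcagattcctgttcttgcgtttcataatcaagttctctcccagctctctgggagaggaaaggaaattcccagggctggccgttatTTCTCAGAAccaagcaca
The response element core was found in 7 of the 8 members and in 3.44% of 32851 mouse promoters of the same length. The gamma-activated form was found in 4 (Gbp5, Gbp7, Igtp and Tgtp2) and in 8.30% of all promoters, and both motifs stood in the same 4 members and in 0.454% of all promoters. In Igtp and Tgtp2 the motifs lie next to each other, 2 bases apart, in a block of 21 bases. Of these 17 are identical, most of them because the motifs themselves fix the letter. Neither motif was present in the Ifi47 window, which says only that these letters are not there. Gbp3 has a RefSeq start further downstream without either motif. These matches are descriptions of sequence, since binding was not measured.

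The genes stand in a few groups on the genome (GENCODE M21, mm10). Gbp5, Gbp7, Gbp3 and Gbp2 lie within 144 kb of chromosome 3 (142493978 to 142638008), and Gbp4 lies on chromosome 5 (105115767 to 105139586). Irgm1 (48861968 to 48871683), Tgtp2 (49057194 to 49064206), Ifi47 (49076587 to 49096974) and Igtp (58199556 to 58207591) are on chromosome 11, and Iigp1 is on chromosome 18 (60376027 to 60392634). Some values need care because of neighbours. All 451 windows of 50 bases in the last 500 transcript bases of Tgtp2 also occur in Tgtp1, so the low Tgtp2 counts are uncertain. Gbp4 overlaps Gbp8 and Gbp9, Igtp overlaps Irgm2, and Ifi47 overlaps Olfr56, each on the same strand. Gbp7 also overlaps a pseudogene, Gm43802, on its strand.

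Cells were placed in classes by single-cell gates on marker genes, and 12 classes with at least 30 cells are compared. There were 2400 macrophage-like cells (high C1qa, C1qb and C1qc, no high Ly6c2), 330 monocyte-like cells (high Ly6c2, low C1q genes) and 94 cells with both, called intermediate. The other classes held 236 CD8 T-like, 93 Treg-like, 91 CD4 T-like, 82 cDC2-like, 70 NK-like, 42 nonclassical monocyte-like, 40 migratory DC-like, 39 melanoma-like and 34 cDC1-like cells. Of 3345 cells that were macrophage-like, intermediate, monocyte-like or left without a class, 135 lay within 20% of the C1q limit for macrophages. All 6 macrophage markers fixed for naming were higher in macrophage-like than in monocyte-like cells, by 3.37 times or more, and all 5 monocyte markers were lower. Among these, C1qa, C1qb, C1qc and Ly6c2 also set the gates, so their difference was fixed in advance. The gates did not use the macrophage markers Adgre1, Mrc1 and Apoe or the monocyte markers Ccr2, Plac8, Vcan and Chil3.

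Summed over the 10 genes, the level was highest in monocyte-like and Treg-like cells and lowest in cDC1-like cells. It was 1247 CPM (1212 to 1283, 4756 UMIs) in monocyte-like and 1207 CPM (1146 to 1270) in Treg-like cells, whose intervals overlap. Melanoma-like cells followed with 1017 CPM (983.7 to 1052) and intermediate cells with 991.8 CPM (946.9 to 1038). The place of melanoma-like cells rested on few cells. 1 cell held 18.3% of their UMIs of these genes, and without it the class stood at 866.4 CPM. Their median cell was at 231.9 CPM, against 396.1 CPM for macrophage-like cells. The lower part of the order was CD4 T-like (778.1 CPM), macrophage-like (720.3 CPM, 714.3 to 726.2, 56415 UMIs), migratory DC-like (676.5 CPM), CD8 T-like (660.3 CPM), cDC2-like (530.2 CPM), NK-like (500.4 CPM), nonclassical monocyte-like (415.4 CPM) and cDC1-like cells (250.5 CPM, 220.6 to 283.3). Of the 11 pairs of neighbours in this order, 7 had overlapping intervals. Free RNA held 729.3 CPM of these genes. The C1q genes, made by macrophages, bound the free RNA in other classes: they stood at 2.91% of their free RNA level in the monocyte class, 2.69% in CD8 T cells, 1.85% in melanoma cells and 5.27% in migratory DCs. At most 21.2 CPM of the 1247 CPM in monocyte-like cells could come from free RNA on that measure. It gives no bound for macrophage-like or intermediate cells, which make C1q themselves.

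**Figure D1:**
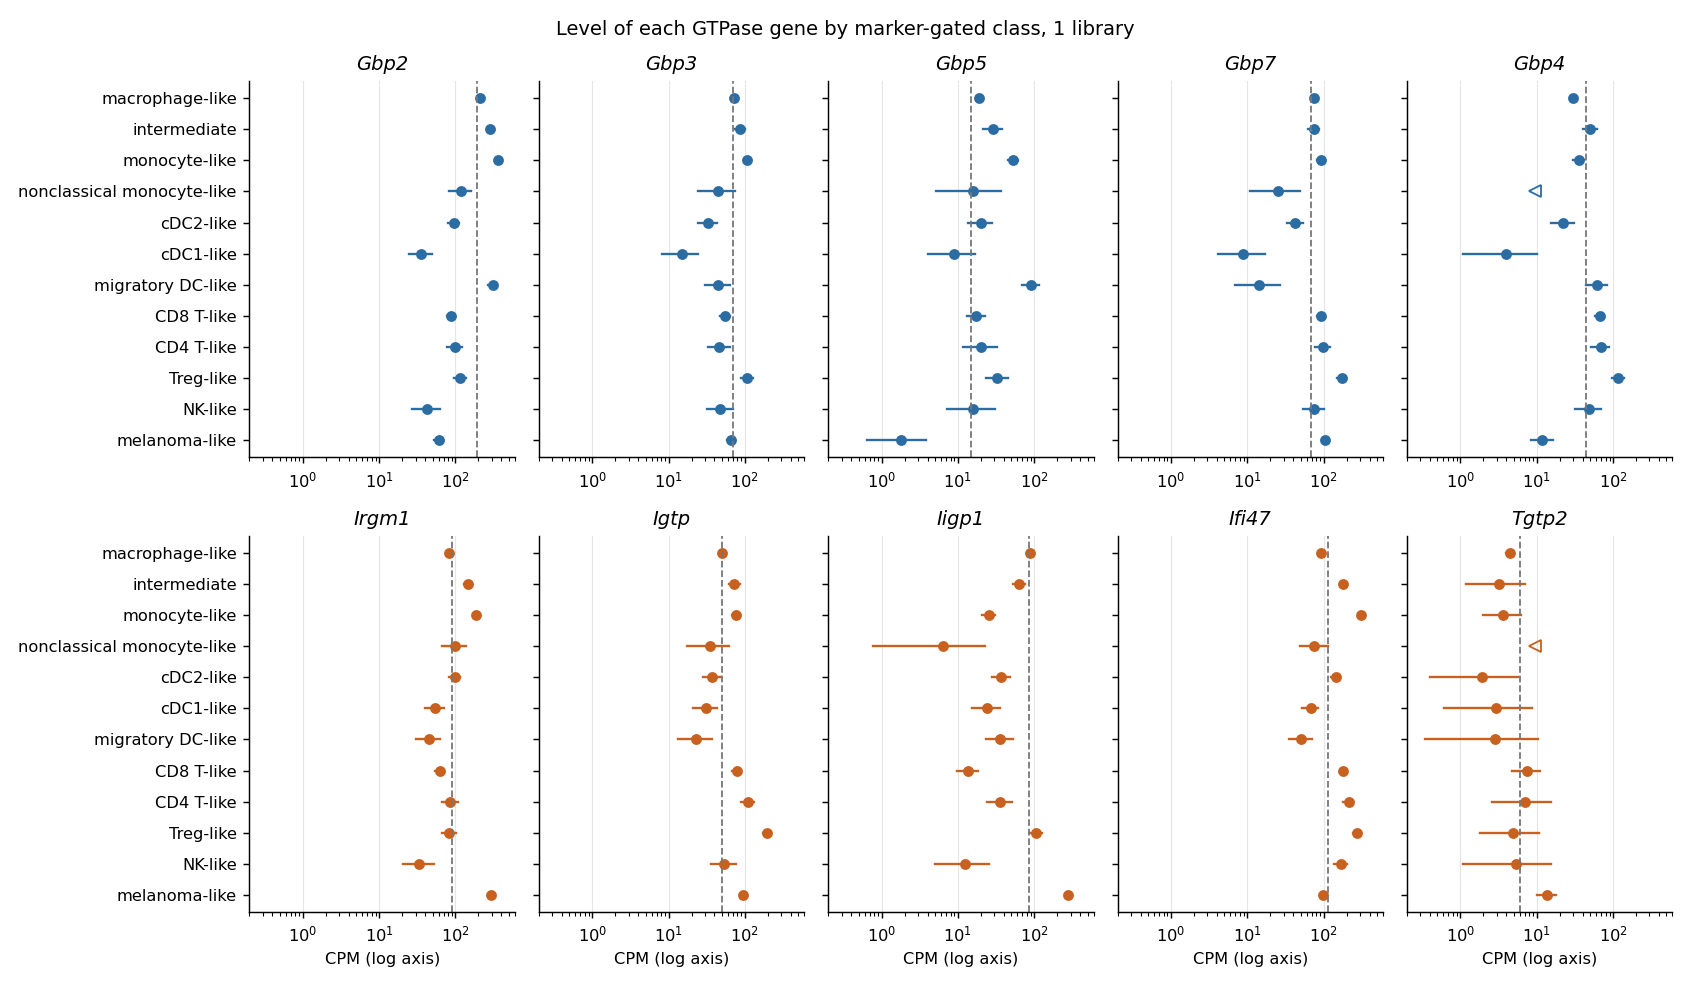
Level of each gene in CPM (log axis) in 12 marker-gated classes, with Gbp genes in blue and Irg genes in orange. Points are summed counts of 1 library, bars are 95% Poisson intervals, open triangles mark 3 counts where no UMI was seen, and dashed lines mark free RNA. Gbp2 and Ifi47 are highest in monocyte-like cells, with intervals that overlap the next class. Gbp5 peaks in migratory DC-like, Gbp7 and Igtp in Treg-like, and Iigp1 and Irgm1 in melanoma-like cells.

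The Gbp genes divided into those highest in myeloid cells and those highest in Treg-like cells. Gbp2, whose product marks interferon-activated macrophages, stood at 360.9 CPM (342.1 to 380.5) in monocyte-like, 308.0 in migratory DCs, 283.5 in intermediate cells and 211.3 in the macrophage-like class. The monocyte-like and migratory DC-like intervals overlap. Gbp2 was at 42.6 CPM in NK-like and 35.6 CPM in cDC1-like cells, and Treg-like cells, at 114.9 CPM, had the most among lymphoid classes. Gbp5, a promoter of inflammasome assembly, was highest in migratory DC-like cells with 90.7 CPM (69.7 to 116.0). It then reached 52.7 CPM in the monocyte class, 32.8 in Tregs and 18.8 in macrophages, and only 1.78 CPM (6 UMIs) in melanoma-like cells. The first 3 classes in the Gbp5 order have intervals that do not overlap.

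Gbp4 and Gbp7 followed another order, led by Treg-like cells. Gbp4 was at 116.6 CPM (98.2 to 137.4) there, at 68.6 CPM in CD4 T-like and 66.6 CPM in CD8 T-like cells, and at 30.2 CPM in macrophage-like cells. No Gbp4 UMI was seen in nonclassical monocyte-like cells, where 3 counts would be 9.44 CPM. Gbp7 was at 171.6 CPM (149.1 to 196.5) in Treg-like, 104.8 in melanoma-like, 92.1 in monocyte-like and 74.6 CPM in macrophage-like cells. It was low in 2 dendritic classes, at 14.4 CPM (migratory DC-like) and 8.91 CPM (cDC1-like). The migratory DC-like class was thus second for Gbp2, first for Gbp5 and second lowest for Gbp7, the gene between Gbp5 and Gbp3 on chromosome 3. Gbp3 was at 108.1 CPM in monocyte-like, 106.7 in Treg-like, 72.0 in macrophage and 14.9 CPM in cDC1-like cells, with every pair of neighbours overlapping.

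The regulators Irgm1 and Igtp, which share the methionine P-loop printed above, did not share an order. Irgm1 was highest in melanoma-like cells at 287.4 CPM (269.6 to 306.1), then 186.2 CPM in monocytes, 147.7 in intermediate cells and 81.7 in macrophages, and lowest in NK-like cells at 33.7 CPM. Igtp was highest in Treg-like cells at 196.2 CPM (172.1 to 222.7), followed by CD4 T-like cells at 108.8, melanoma-like cells at 95.3, CD8 T-like cells at 77.8 and monocyte-like cells at 76.3 CPM. Macrophage-like cells held 49.5 CPM of Igtp.

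Among the effectors, Ifi47 and Iigp1 ran in opposite directions from monocyte-like through intermediate to macrophage-like cells. Ifi47 was at 306.3 CPM (289.0 to 324.4) in monocyte-like cells, 181.3 in intermediate and 91.0 in macrophage-like cells. It was at 273.4 CPM in Treg-like cells, with an interval that overlaps the monocyte-like one, and at 180.9 CPM in CD8 T-like cells. Iigp1 rose along the same myeloid series, from 25.4 CPM (20.6 to 31.0) in monocyte-like to 63.8 in intermediate and 86.8 CPM (84.7 to 88.9) in macrophage-like cells, with no overlap between the 3 intervals. Both were low in nonclassical monocyte-like cells, where Ifi47 was at 75.5 CPM. Iigp1 was at 6.29 CPM (2 UMIs) in nonclassical monocyte-like, 13.4 CPM in CD8 T-like, 106.7 CPM in Treg-like and 277.4 CPM (259.9 to 295.7) in melanoma-like cells. Tgtp2 was scarce everywhere, from 13.6 CPM in melanoma-like cells to no UMI in nonclassical monocyte-like cells, and every pair of neighbours in its order overlapped. The mix of families differed as well: Gbp genes gave 56.5% of the summed UMIs in macrophages, 52.1% in monocytes, 76.8% in migratory DC-like cells, 28.9% in cDC1-like and 24.1% in melanoma-like cells.

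In macrophage-like over monocyte-like cells, 6 members were lower, 1 was higher and 3 lay within the limit. The summed level was 0.577 times (0.561 to 0.595) that of monocyte-like cells, and the middle of the 10 ratios was 0.657, against 1.14 for all 11126 genes compared. Of all genes, 16.0% were lower and 31.3% higher past the limit. Ifi47 had the lowest ratio, 0.297 (0.279 to 0.316), followed by Gbp5 at 0.356 (0.307 to 0.415), Irgm1 at 0.439 (0.406 to 0.475) and Gbp2 at 0.586 (0.554 to 0.619). Igtp at 0.649 and Gbp3 at 0.666 were just past the limit, and stayed past it in 9 and 6 of 13 other ways of processing. Gbp5 stayed past it in 12 of 13, and was at 0.672 with every cell thinned to 1000 UMIs. Iigp1 alone was higher, at 3.41 times (2.79 to 4.21), and was higher past the limit in all 13 alternatives, from 2.27 to 3.89 times. Gbp4 (0.846), Gbp7 (0.810) and Tgtp2 (1.21) lay between.

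The cells of both classes differed in depth, with medians of 30559.5 and 10615 UMIs, and in several marker sums. With every cell thinned to 1000 UMIs the summed ratio was 0.610. Summed dissociation stress genes, which rise when tissue is broken up, summed to 4244 CPM against 8007 CPM, and 8 of 10 were lower in macrophage-like cells, and their part in the result was not tested. Cell cycle genes ran the other way, with 8 of 8 higher in macrophage-like cells.

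**Figure D2:**
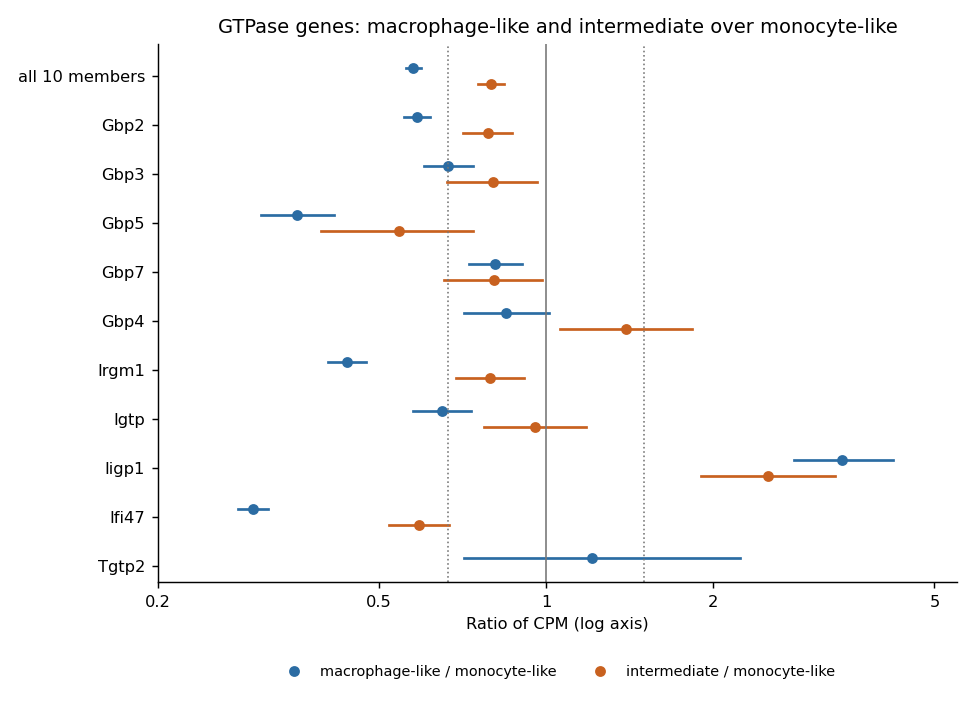
Ratio of CPM for each gene and for the 10 summed (log axis), macrophage-like over monocyte-like cells in blue and intermediate over monocyte-like cells in orange, with 95% exact intervals and dotted lines at 1.5 times in either direction. Iigp1 lies to the right at 3.41 and 2.51 while Ifi47 lies to the left at 0.297 and 0.592.

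Intermediate cells, which carry both Ly6c2 and C1q genes, lay between the 2 classes for most members. Over monocyte-like cells the sum was 0.795 times, with the ratios of Gbp5 (0.544) and Ifi47 (0.592) lower past the limit and Iigp1 (2.51) higher among 9 members compared. In that comparison 11.3% of all genes were lower and 13.5% higher. Gbp4, Gbp7 and Tgtp2 were exceptions. Gbp4 was at 49.8 CPM in intermediate cells, against 35.7 CPM in monocytes and 30.2 CPM in macrophages, and Gbp7 was at 74.1 CPM, level with the 74.6 CPM of macrophages.

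Other interferon-response genes were also lower in macrophage-like than in monocyte-like cells, with exceptions inside the same families. All 12 type I interferon genes were lower, with a median ratio of 0.251 (Mx1 0.135, Usp18 0.214, Oas1a 0.395, Ifi44 0.478). Of 11 genes of interferon gamma signalling and its targets, 8 were lower (Jak2 0.255, Ciita 0.358, Irf1 0.364, Ifngr1 0.379) and 1 higher, the chemokine gene Cxcl9 at 2.35 times. Of 8 other Gbp and Irg genes compared, 4 were higher and 2 lower. Gbp2b was at 13.3 and 2.62 CPM, a ratio of 5.07, and Gm4951, an Irg gene on the same chromosome as Iigp1, was at 20.5 and 5.77 CPM, a ratio of 3.55. Gvin1 (0.277) and Gbp9 (0.284) were the lowest. Of 7 genes that act with these GTPases in membrane attack and pyroptosis, 5 were lower (Il18 0.253, Zbp1 0.256), and of 10 genes of the autophagy conjugation machinery that loads GTPases onto membranes 1 was lower (Map1lc3a 0.476) and none was higher.

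Cells were also compared at a low type I count. Among cells with no UMI of the 12 type I genes after thinning to 5000 UMIs, 862 macrophage-like and 31 monocyte-like cells remained, and the summed ratio was 0.584. Ifi47 was at 0.458, Irgm1 at 0.633, Gbp2 at 0.447, Gbp5 at 0.208 and Iigp1 at 2.92 times in these cells. Gbp3 (0.797) and Igtp (0.722) were no longer past the limit, and Gbp7 (0.557) was.

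Within macrophage-like cells the members varied widely from cell to cell. The summed level had a lower quartile of 167.6 CPM, a median of 396.1 CPM and an upper quartile of 847.9 CPM, and the highest cell reached 9406 CPM. In 2337 cells thinned to 5000 UMIs (63 were shallower), 59.3% had no Gbp2 UMI, while 21.6% had 2 or more and 1 cell had 25. Iigp1 was unevenly spread too: 80.7% of cells had none and the highest had 18, and the variance over the mean was 3.69, against 4.32 for Gbp2 and 1.06 to 1.75 for the other 8 members. At this depth 547 cells (23.4%) had no UMI of any member and 2 cells had all 10. Correlations between members over these cells ran from 0.0796 (Gbp3 and Tgtp2) to 0.401 (Gbp4 and Iigp1) with a median of 0.234 over 45 pairs. Counts at this depth are sparse and the cells share 1 library, so these are descriptions.

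Cells were then split by genes that are not members, after thinning, and members were read from all UMIs. For type I interferon genes, the 615 macrophage-like cells with 3 or more UMIs of the 12 genes were set against the 862 with none. All 10 members were higher in the first set, by 2.76 times in sum (2.70 to 2.82), from 2.14 for Gbp3 to 4.52 for Gbp5, and 5.30% of all genes were higher past the limit. With the split redrawn from cells thinned to 1000 UMIs, and members again read from all UMIs, the sum was 1.78 times. The limits of that split were set anew, so other cells were compared. For Cxcl9, the 615 cells with 12 or more UMIs were set against 653 with none. All 10 were again higher, by 4.15 times in sum (4.04 to 4.26), with 3.60% of all genes past the limit.

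The members did not rank alike in the 2 splits. Gbp2 was at 517.4 CPM in Cxcl9-high and 59.1 CPM in Cxcl9-negative cells, a ratio of 8.75 (8.25 to 9.29), and its ratio for type I genes was 2.96. Iigp1 (5.31 and 3.10), Gbp4 (4.74 and 2.89) and Gbp5 (5.59 and 4.52) also had larger values for Cxcl9. Irgm1 (2.41 for Cxcl9 and 2.74 for type I genes), Ifi47 (2.80 and 2.95) and Igtp (2.51 and 2.49) had lower or nearly equal values for Cxcl9, with overlapping intervals. With the Cxcl9 split redrawn from cells thinned to 1000 UMIs, the ratios of Gbp2, Gbp5 and Iigp1 were 5.5, 3.64 and 3.18. The splits share cells, so the difference between them was not tested. In the Cxcl9 split, 8 of 9 other Gbp and Irg genes compared were higher (Gbp2b 5.16, Tgtp1 4.88), 4 of 12 type I genes were higher (Irf7 1.95, Cmpk2 1.90; Rsad2 1.03 and Ifit1 1.05 were lowest), and none of 10 autophagy genes passed the limit. Of the stress genes 3 were lower in Cxcl9-high cells (Hspa1b 0.262, Hspa1a 0.376, Atf3 0.607), where 6.27% of all genes were, and their part in the result was not tested.

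**Figure D3:**
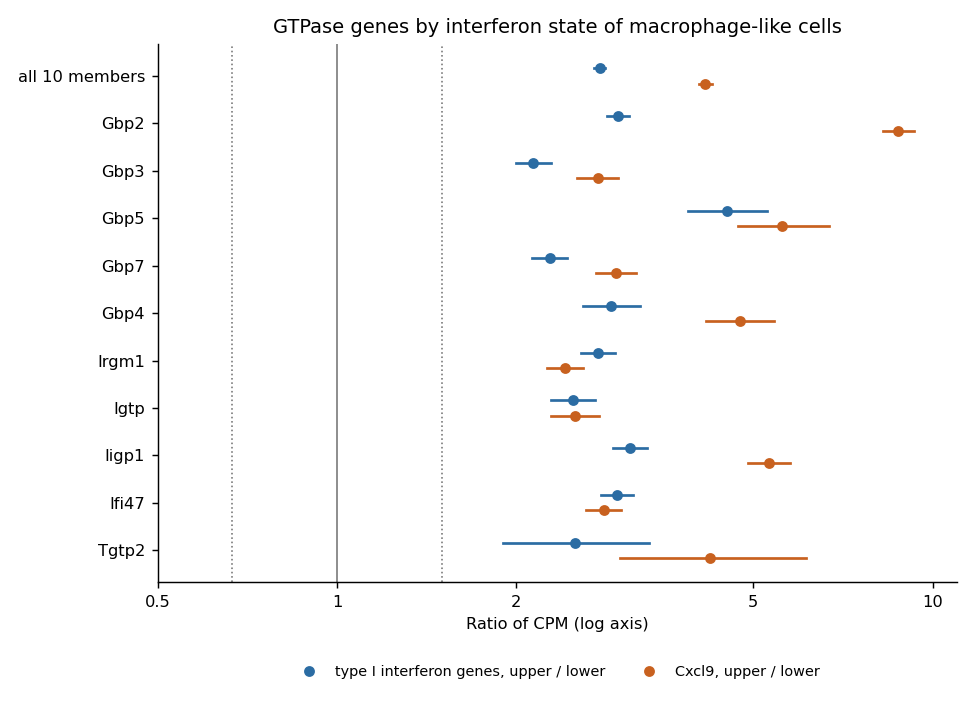
Ratio of CPM within macrophage-like cells (log axis) for cells with many against no type I interferon UMIs (blue) and many against no Cxcl9 UMIs (orange), with 95% exact intervals and dotted lines at 1.5 times. All points lie right of 1.5, and Gbp2 has the largest Cxcl9 ratio at 8.75.

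Cell cycle and Mrc1, a mannose receptor of tissue-resident-like macrophages, moved the members little. In 753 cells with 3 or more cell cycle UMIs over 1006 with none, the sum was 0.946 times and no member passed the limit, against 10.8% of all genes higher and 8.38% lower. Iigp1 was lowest there at 0.766 (75.3 and 98.3 CPM). In 896 Mrc1-positive over 1441 Mrc1-negative cells the sum was 1.13 times, and Iigp1 alone passed the limit at 1.59 (113.3 and 71.2 CPM), with 4.51% of all genes higher. Gbp2 was at 0.920 in the same comparison, so these 2 members stood on opposite sides of 1. With the split redrawn from cells thinned to 1000 UMIs, Iigp1 was at 1.27 and no longer past the limit.

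Clusters of cells, made without the members and the interferon lists named here but not without every interferon-induced gene, showed where among macrophages the members were high and low. The 8 macrophage clusters held 2313 of the 2400 macrophage-like cells, and the summed level ran from 246.1 CPM in cluster 5 to 2342 CPM in cluster 3. Clusters 10 (1120 CPM, 57 cells), 1 (911.9), 7 (854.1), 4 (737.5), 6 (686.3) and 2 (494.4) lay between. Cluster 2 departed from its neighbours for Gbp4 (10.2 CPM) and Gbp5 (5.49 CPM), which lay within overlapping intervals of cluster 5 (12.3 and 6.26 CPM), while its Igtp (46.1 CPM) was close to that of clusters 1, 6 and 7 (48.2 to 48.8 CPM).

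Cluster 3, led by Ifit3b, Ifit3 and Rsad2, held the most of every member. Its 43 macrophage-like cells were set against the other 2357. All 10 were higher past the limit, with a summed ratio of 3.38 (3.26 to 3.50), and 6.80% of all genes were higher. Iigp1 was at 447.4 CPM against 80.8 CPM, a ratio of 5.54 (5.08 to 6.03), Gbp5 was at 4.93 times, Ifi47 at 4.21 and Irgm1 at 4.09 times. Gbp2 had the smallest ratio, 1.97 (409.3 and 208.0 CPM). Of the interferon gamma list 6 of 11 were higher, among them Cxcl9 (2.29), and 1 was lower, Ciita at 0.336, where 18.1% of all genes were lower.

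Cluster 5, led by Adm, Nos2 and Mmp12, was the reverse for the GTPases but not for all interferon genes. Its 321 macrophage-like cells had 0.316 times (0.302 to 0.330) the summed level of the other 2079, and all 10 members were lower, where 29.2% of all genes were lower. Iigp1 was at 18.9 against 95.2 CPM, a ratio of 0.199, Gbp7 was at 0.244, Gbp2 at 0.290 (66.5 and 229.3 CPM) and Irgm1 at 0.439. Of the 12 type I genes 6 were higher in the same cells, among them Rsad2 at 9.07 times (239 and 26.4 CPM) and Ifit1 at 6.26 times, and 2 were lower, Oas1a (0.579) and Usp18 (0.650), where 10.4% of all genes were higher. On the interferon gamma list 5 of 11 were lower and none higher, and those lower included Ciita (0.349), Cxcl9 (0.394), Ifngr1 (0.524) and Irf1 (0.540). The stress genes Hspa1b (36.6 times) and Hspa1a (28.3 times) were far higher in this cluster, as 4 of 10 stress genes were, and their part in the result was not tested. The cells had a median of 24514 UMIs against 31557.

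**Figure D4:**
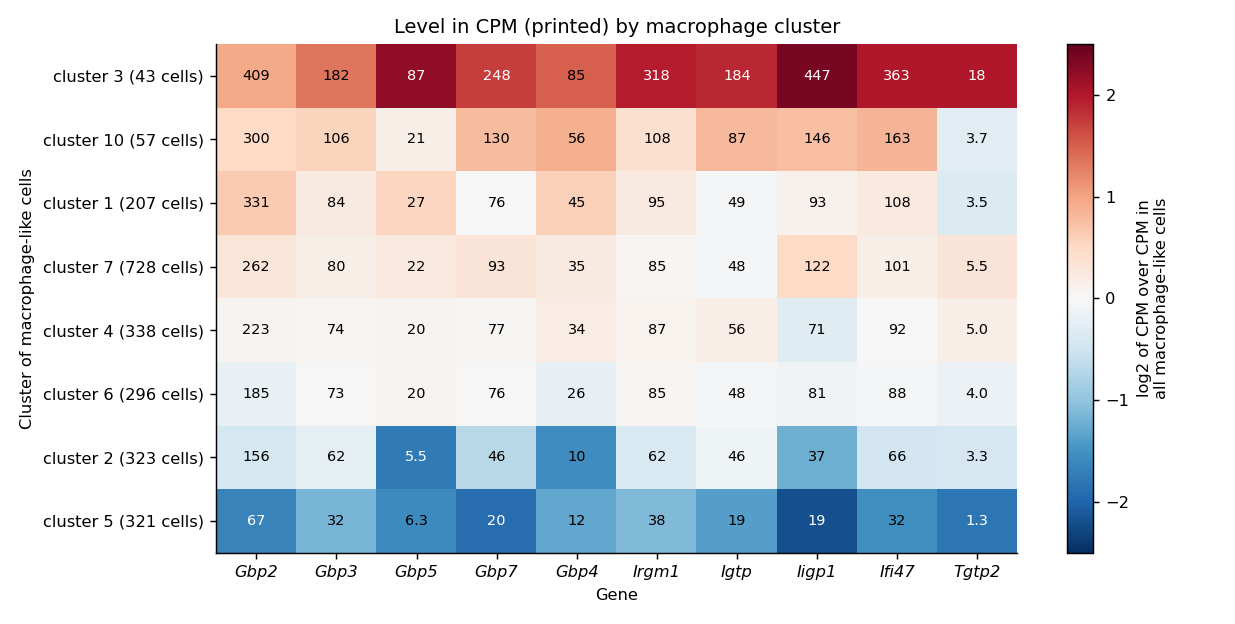
Level of each gene in CPM (numbers) in 8 clusters of macrophage-like cells, coloured by the log2 of the level over that in all macrophage-like cells and ordered by the summed level. Cluster 3 is high and cluster 5 is low for all 10 genes, and Gbp4 and Gbp5 are also low in cluster 2.

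Spatial barcodes were compared within a class, to ask whether members differ between labelled regions. The assignment planned at first, by 10 counts and 2 times the next barcode, left 6 ZC1 and 6 ZC2 macrophage-like cells. The values reported therefore use each barcode's share relative to its share in free RNA droplets, with at least 30 spatial UMIs and 1.5 times the next. It placed 249, 234 and 691 macrophage-like cells and 61, 75 and 90 monocyte-like cells in ZC1, ZC2 and ZC3.

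In macrophage-like cells the members differed little between barcodes. The summed level was 670.2 CPM in ZC1, 801.4 in ZC2 and 712.7 in ZC3. ZC1 over ZC3 gave 0.940 (0.910 to 0.971), with Tgtp2 alone past the limit at 0.594 (19 and 113 UMIs), against 5.06% of all genes lower and 8.13% higher. Median depths were 25674, 27573.5 and 33856 UMIs. ZC2 over ZC3 gave 1.12 (1.09 to 1.16) with no member past the limit, against 6.0% of all genes higher and 4.31% lower. Gbp2 was highest in ZC2, at 270.1 CPM against 181.8 in ZC1 and 200.3 in ZC3. Igtp was highest in ZC3, at 55.6 CPM against 42.2 and 43.5 CPM. The cells of each barcode were of different kinds: cluster 10 gave 14.5% of ZC1 cells and 0.145% of ZC3 cells, cluster 7 gave 39.7% of ZC2 and 20.8% of ZC3 cells, and CD3 genes stood at 40.4 CPM in ZC1 and 10.9 CPM in ZC3. Within clusters, ZC1 was below ZC3 in cluster 4 (476.5 and 708.5 CPM) and cluster 7 (763.4 and 982.2 CPM). The same held in cluster 5 (168.2 and 205.4 CPM), with overlapping intervals. Cluster 10 stood at 1053 CPM in ZC1. The order of ZC2 and ZC3 differed between clusters. The summed level was higher in ZC2 in cluster 6 (922.7 and 664.5 CPM) and in cluster 5 (245.6 and 205.4 CPM, overlapping intervals). It was lower in ZC2 in cluster 2 (408.3 and 523.1 CPM), and in clusters 7 (952.5 and 982.2 CPM) and 4 (672.9 and 708.5 CPM) with overlapping intervals. The part of cell mix and of CD3 genes in the result was not tested.

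In monocyte-like cells ZC1 had the lowest level. The sum was 919.1 CPM in ZC1, 1347 in ZC2 and 1332 in ZC3, and ZC1 over ZC3 was 0.690 (0.628 to 0.758). Of 9 members compared, 4 were lower past the limit where 6.14% of all genes were: Iigp1 (0.276, 0.104 to 0.629), Irgm1 (0.526), Gbp5 (0.568) and Ifi47 (0.590). Iigp1 rested on 7 UMIs in ZC1 and 36 in ZC3, or 9.72 and 35.2 CPM, with 17.2 CPM in ZC2. Ifi47 was at 188.8 CPM in ZC1, 351.6 in ZC2 and 319.8 in ZC3, and Irgm1 was at 106.9, 217.6 and 203.4 CPM. With cells thinned to 1000 UMIs the Ifi47 ratio was 0.738, within the limit. Gbp4 did not follow, at 40.3, 35.5 and 36.2 CPM. ZC2 over ZC3 gave 1.01, with Iigp1 alone lower at 0.488 (0.248 to 0.914) where 6.03% of all genes were. Type I interferon genes were lower in ZC1 monocyte-like cells as well, 9 of 11 past the limit with a median ratio of 0.416. Median depths were 10852 UMIs in ZC1 and 10596.5 in ZC3. CD3 genes stood at 22.2 and 5.87 CPM, and their part in the result was not tested.

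**Figure D5:**
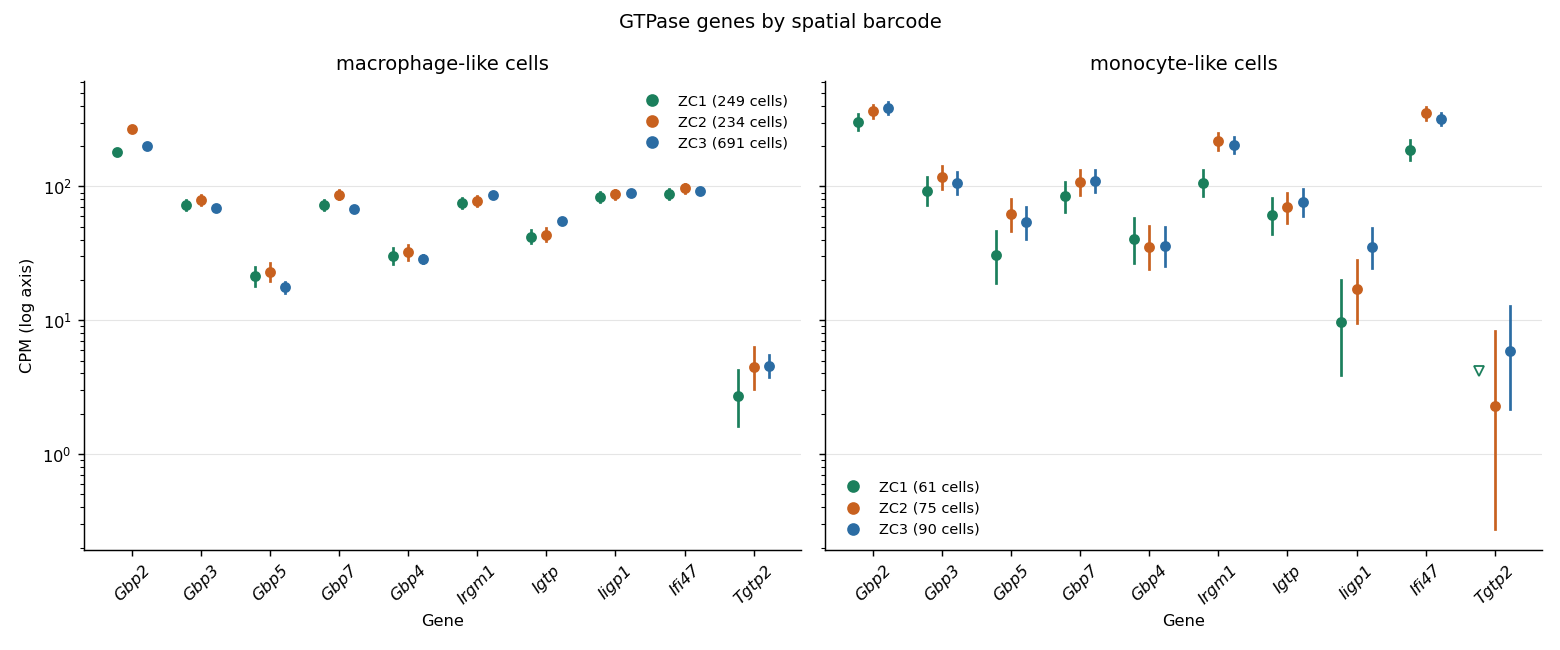
Level of each gene in CPM (log axis) by spatial barcode in macrophage-like (left) and monocyte-like cells (right), with 95% Poisson intervals and an open triangle at 3 counts where no UMI was seen. Macrophage-like values lie close together, while ZC1 monocyte-like cells are lowest for Irgm1 (106.9 CPM), Ifi47 (188.8 CPM) and Iigp1 (9.72 CPM).

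In CD8 T-like cells the summed level was 515.7 CPM in ZC1 (453.6 to 583.9, 63 cells), 571.2 in ZC2 (519.1 to 627.1, 50 cells) and 704.8 in ZC3 (643.9 to 769.8, 43 cells). The first 2 intervals overlap, and 1 cell held 16.8% of the ZC3 UMIs. Thinned to 2000 UMIs, 63.5%, 70.0% and 62.8% of cells had a member UMI, so ZC3 was not higher on that measure. Median depths were 5595, 11420 and 9715 UMIs.

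Among T cells, Treg-like cells held more of the members than CD8 T-like cells, which had the most interferon gamma (Ifng) RNA. CD8 T-like cells held 366.3 CPM of Ifng, CD4 T-like cells 209.3, NK-like cells 193.4, Treg-like cells 27.9 and macrophages 1.25 CPM. Treg-like over CD8 T-like cells gave 1.83 (1.71 to 1.95) for the sum, with 7 members higher and 1 lower, against 15% and 9.92% of all genes. Iigp1 had the largest ratio, 7.94 (5.59 to 11.5, 130 and 43 UMIs), and Igtp followed with 2.52 (2.10 to 3.02). Gbp2 (1.32) and Irgm1 (1.33) stayed within the limit, and the member on the lower side was Tgtp2, on 6 and 24 UMIs with an interval from 0.220 to 1.65. The receptor gene Ifngr1 was 2.45 times higher in Treg-like cells, and Gm4951 was 10.5 times higher on 22.99 and 2.19 CPM (28 and 7 UMIs). Depths were alike, with medians of 8399 and 8301 UMIs.

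CD8 T-like over macrophage-like cells gave nearly the same sum, 0.917, from different genes. Gbp4 (2.21), Ifi47 (1.99), Tgtp2 (1.69) and Igtp (1.57) were higher and Gbp2 (0.411) and Iigp1 (0.155) lower. Of the 10 members 4 were higher and 2 lower, which is not far from the shares of all genes, 23.1% higher and 27.6% lower.

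Melanoma-like cells, marked by Pmel, Mlana and Dct, made up 39 cells of an immune sort and had the most Irg and the least Gbp RNA by share. Over macrophage-like cells, Irgm1 (3.52), Iigp1 (3.20), Tgtp2 (3.06) and Igtp (1.92) were higher, and Gbp2 (0.286), Gbp4 (0.392) and Gbp5 (0.0946) were lower. Of the 10 members 4 were higher and 3 lower, which is near the shares of all genes, 39.1% higher and 24.1% lower. Few cells carried the level: 12 of the 39 were at or above 1000 CPM and 22 were below 300 CPM, with a median cell of 231.9 CPM. The cell with the most Iigp1 held 29.0% of the Iigp1 UMIs of the class, and without it the class stood at 205.2 CPM. For Irgm1 the corresponding cell held 15.2%, with 253.9 CPM left. Ifngr1 (0.169) was lower in melanoma-like than in macrophage-like cells, and Irgm2, another regulator of the family, was 2.83 times higher.

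Dendritic classes differed from each other in which members they held. Migratory DC-like over cDC2-like cells gave 1.28 (1.14 to 1.43) in sum. Gbp5 (4.53, 2.91 to 7.21), Gbp2 (3.25) and Gbp4 (2.82) were higher, and Gbp7 (0.338), Ifi47 (0.349), Irgm1 (0.458) and Igtp (0.616) lower, among 9 compared. Of the 9 members 3 were higher and 4 lower, which is not far from the shares of all genes, 19.3% higher and 34.4% lower. The counts are small, with 63 Gbp5 and 10 Gbp7 UMIs in 40 migratory DC-like cells.

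The genes most like the summed members were sought over 16 clusters of at least 50 cells, by Pearson correlation of log2(CPM + 1) among 7771 genes. Rgs14 (0.792), Acot8 (0.779), G3bp2 (0.776), Rab35 (0.751) and Tmem192 (0.738) came first. The clusters share 1 library and differ in depth, so these are descriptions. Between members over the same clusters, Gbp7 and Igtp were most alike (0.872) and Gbp2 and Tgtp2 least alike (-0.0546), with a median of 0.540 over 45 pairs.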

How the data were processed

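Deposited UMI counts of the gene expression and spatial barcode libraries were used. The authors' matrix holds 6794880 barcodes with both kinds of count, and the submitters' processing notes name Cell Ranger 4.0.0 and mm10. For the aligner's settings: not given in the sources used here.

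Cells were kept by the limits given in the report. Members and gene lists were chosen with earlier results of these data known, and gate limits were set after marker distributions had been seen. The classes use markers per 10000 UMIs of a cell (for example C1q genes at 60 for macrophages and Ly6c2 at 5 for monocytes). No doublet caller was run and no doublets were removed; 134 cells with both CD3 and C1q genes were kept apart, and 521 stayed unassigned. Clusters came from Scanpy 1.11.5 and igraph 0.11.9 (2000 variable genes, of which 25 members and interferon genes were left out, 30 components, 15 neighbours, resolution 1).

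Counts were summed over cells. Genes entered a ratio with 30 UMIs or more over the pair of sets and 3 expected in the smaller one. Intervals were computed with SciPy 1.17.1, and the ratio and its interval were tested on simulated Poisson counts. Those counts hold no spread between cells, so the test covers counting error only. All 10 members are named. Of other lists, the highest and lowest ratios are named, and further genes (Irf1 and Ifngr1 among them) were named after their values were seen. One gene of the interferon gamma list is not reported here by name. The planned barcode assignment left too few cells, and the relative assignment is reported in its place. The alternatives changed cell limits, gates, cell weights, free RNA, depth and clusters left out.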

Additional observations from a re-analysis of the deposited data

How the results depend on the processing

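For the summed members, 43 of 66 alternative values moved by less than their counting interval and 23 moved by more. None past the limit changed direction. ZC2 over ZC3 in monocyte-like cells, 1.01 and within the limit, crossed to the other side of 1 in 2 alternatives, at 0.991 with at least 5000 UMIs and 0.898 when thinned, both with intervals that include 1. Macrophage-like over monocyte-like cells gave 0.559 with at most 5% mitochondrial UMIs, 0.482 with Leiden clusters in place of gates, 0.610 with cells thinned to 1000 UMIs, 0.556 without cluster 3, 0.624 without cluster 5 and 0.619 with intermediate cells counted as monocyte-like. ZC2 over ZC3 in macrophage-like cells gave 1.07 with Leiden clusters, 1.23 when thinned, 1.19 without cluster 3 and 1.09 without cluster 5. In monocyte-like cells ZC1 over ZC3 gave 0.610 with Leiden clusters and 0.561 with gates 2 times as high, both past the limit, and ZC2 over ZC3 gave 1.16 with Leiden clusters and 0.898 when thinned. The macrophage splits were redrawn from cells thinned to 1000 UMIs, with members read from all UMIs. They gave 1.78 for type I genes, 2.89 for Cxcl9, 0.845 for cell cycle and 1.02 for Mrc1. Without cluster 3 the values were 2.56 for type I genes, 4.27 for Cxcl9 and 0.990 for cell cycle, and without cluster 5 they were 3.76 for Cxcl9 and 0.874 for cell cycle. The cause was not tested. Of 613 values for single members 113 moved and none of the called ones changed direction. The stricter barcode assignment, and monocyte-like cells without type I UMIs by barcode, left too few cells and gave no value. The alternatives that leave out clusters 3 or 5, join intermediate cells or remove cells with CD3 or type I UMIs were chosen after seeing the data. No paired analysis was possible because both samples are libraries of the same cells.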
